A study of Mus musculus with 8 samples.

Results

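Trypsinogens are the inactive precursors of the digestive protease trypsin, and Spink1 is a small secreted inhibitor that blocks trypsin. The 7 genes described here are the trypsinogens Prss1, Prss2, Prss3, Try4, Try5 and Try10 and the inhibitor gene Spink1, chosen by gene name among the 21434 genes measured. All 7 were present and all 7 passed the filter on low counts. RNA-seq was performed on homogenised pancreatic tissue of 4 Bach2KO and 4 Bach2WT mice. The question was how loss of Bach2, a transcriptional repressor of lymphocytes, affects gene expression in the pancreas. Bach2KO mice were homozygous for Bach2tm1b(EUCOMM)Wtsi, a deletion carried by the whole body, on the C57BL/6N background, and Bach2WT mice were wild type animals of the same strain. Mice of both genotypes were untreated and 18 weeks old. Mice 1 and 2 of each genotype were female and mice 3 and 4 male. The colonies were kept at separate sites, and the labels do not say from which site a mouse came. The knockout is not restricted to the pancreas, and the tissue holds all pancreatic cell types.

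Acinar cells of the pancreas make trypsinogen and store it with the other digestive enzymes in zymogen granules. In the gut, enteropeptidase cuts trypsinogen behind a lysine that follows a run of aspartates, and the trypsin so formed activates the other zymogens. Spink1 is packed into the same granules and holds trypsin in check when it forms too early, which is why this pair of activities is followed in pancreatitis.

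The activation site is shown because trypsinogen is cut there to form trypsin and because it shows how alike the copies are. The 36 bases around it were read from GENCODE M21 transcripts (build GRCm38, sense strand). Capitals mark the aspartate codons and the codon of the lysine after which the protein is cut, and the lower-case bases behind them encode Ile-Val-Gly-Gly, the start of trypsin.
Prss1: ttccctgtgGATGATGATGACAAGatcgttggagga
Try4: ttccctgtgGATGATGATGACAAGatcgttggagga
Try5: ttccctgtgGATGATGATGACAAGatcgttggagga
Prss2: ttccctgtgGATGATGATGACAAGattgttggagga
Prss3: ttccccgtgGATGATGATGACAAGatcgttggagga
Try10: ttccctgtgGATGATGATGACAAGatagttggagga
Gm5771: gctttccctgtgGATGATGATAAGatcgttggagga
2210010C04Rik: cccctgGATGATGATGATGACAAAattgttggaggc
The 6 trypsinogens named above share a run of 4 aspartate codons, and Prss1, Try4 and Try5 have the same letters over the whole window. Gm5771 and 2210010C04Rik, which are trypsinogen-like genes of the same cluster, have 3 and 5 aspartate codons.

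This likeness bears on the counts. Over the whole transcript, Prss3 was 98.9% identical to Gm10334, Prss1 was 97.8% identical to Gm5771, and Try4 was 97.1% identical to Try5 (share of aligned bases). Windows of 150 bases, the read length of the study, that also occurred letter for letter in another trypsinogen transcript made up 31.2% of Prss3, 19.2% of Try4, 19.2% of Try5 and 3.66% of Prss1. No such window occurred in Try10 or Prss2. Try10 was still 97.7% identical to the pseudogene Gm5409 and 94.8% identical to Try4. Whether reads that differ by a few letters were misplaced was not tested. Counts of Prss3, Prss1, Try4 and Try5 are therefore uncertain to the extent that reads fit several copies, and how such reads were treated is not given in the sources used here.

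Promoters are shown for the 4 trypsinogens that have an entry in the RefSeq table (build GRCm38.p6). Their mean levels ran from 15.8 FPKM (Prss1) to 60591 FPKM (Prss2), and whether the promoter letters bear on this was not tested. Each run holds the 250 bases before the start of the gene on its own strand. Capitals mark 4 motifs: TTTCCC and CAGGTG, each read on both strands, TGANTCA, and TATAAA on the gene's strand, the last of which was added after the sequences had been seen.
Prss2, chr6:41521526-41521775, plus strand: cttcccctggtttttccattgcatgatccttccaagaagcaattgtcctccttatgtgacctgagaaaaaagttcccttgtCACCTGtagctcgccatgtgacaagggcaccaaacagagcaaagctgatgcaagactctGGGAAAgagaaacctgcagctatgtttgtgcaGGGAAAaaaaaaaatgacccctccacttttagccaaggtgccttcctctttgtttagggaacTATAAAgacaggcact
Try4, chr6:41302022-41302271, plus strand: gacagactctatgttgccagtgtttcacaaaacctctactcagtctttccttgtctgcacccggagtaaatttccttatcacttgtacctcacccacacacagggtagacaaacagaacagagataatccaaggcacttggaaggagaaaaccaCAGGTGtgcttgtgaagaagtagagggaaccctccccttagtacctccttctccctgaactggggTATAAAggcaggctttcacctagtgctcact
Prss1, chr6:41458680-41458929, plus strand: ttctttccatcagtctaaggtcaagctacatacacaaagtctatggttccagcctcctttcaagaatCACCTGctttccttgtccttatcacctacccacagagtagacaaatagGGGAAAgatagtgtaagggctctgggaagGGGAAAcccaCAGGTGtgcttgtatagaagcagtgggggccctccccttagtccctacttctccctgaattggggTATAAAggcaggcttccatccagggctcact
Prss3, chr6:41377614-41377863, minus strand: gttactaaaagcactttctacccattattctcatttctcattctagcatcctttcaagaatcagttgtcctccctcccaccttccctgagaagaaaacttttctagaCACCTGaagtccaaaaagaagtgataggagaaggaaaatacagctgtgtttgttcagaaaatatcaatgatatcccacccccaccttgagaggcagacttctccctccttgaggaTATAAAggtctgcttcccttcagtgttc
CAGGTG and TATAAA occurred in all 4 windows, and in 17.2% and 7.59% of 32851 promoters of the same length. These shares do not serve as a test, since the windows belong to related copies and TATAAA was picked from them. TTTCCC occurred in the windows of Prss1 and Prss2, against 21.9% of promoters, and TGANTCA, which 6.75% of promoters held, occurred in none of the 4. The Prss1 window was 98.3% identical to that of Gm5771 and 73.1% identical to that of Try4, over 230 and 242 aligned bases.

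In the deposited table, which uses GRCm39, the 6 trypsinogens lay on chromosome 6 between 41279203 and 41502013. Together with 6 other trypsinogen-like genes (2210010C04Rik, Gm5771, Gm10334, 1810009J06Rik, Gm2663 and the pseudogene Gm5409) they filled a stretch of 560 kb from 40941688 to 41502013. The stretch held 11 further genes, 8 of which were variable segments of the T cell receptor beta chain, and all 11 lay between Gm2663 and Try4. These 11 neighbours reached at most 13 counts in a library (Gm38294), whereas Try4 had at least 3026090. Members on the plus and minus strand alternated in places, as Try4 and Try5 did.

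**Figure D1:**
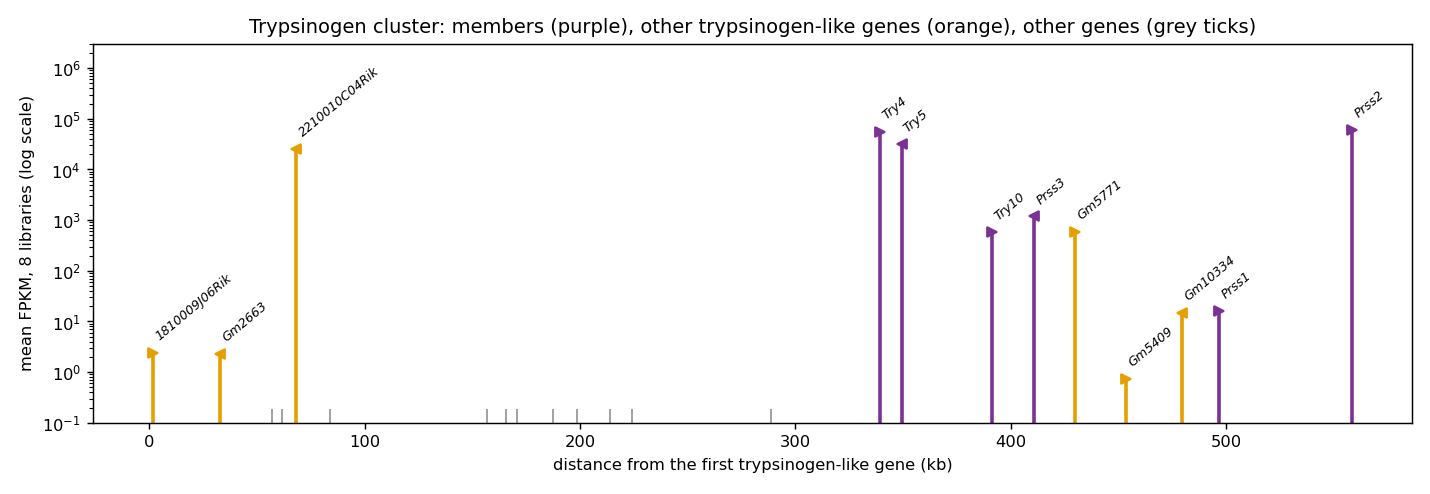
Mean FPKM over 8 libraries (log scale) of the trypsinogen genes against their distance in kb from the first gene of the cluster, with arrowheads giving the strand. Try4, Try5, Prss2 and 2210010C04Rik had means of 55587, 31358, 60591 and 25821, and the highest of the others was Prss3 with 1180.

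The libraries held 72299745 to 172029360 counts on genes. The 95% Wilson interval of a trypsinogen's share of a library was at most 0.0101 percentage points wide, which covers counting error only. Of counts above 10, 54.7% to 58.7% were even, and if both mates of a pair were counted these intervals are wider. Differences between mice were far larger than this. The list of 37 digestive enzymes, these trypsinogens included, took 86.1% ± 0.873 of the counts in knockout and 87.7% ± 0.741 in wild type libraries (mean ± SD over 4 mice). CPM values given here are counts scaled to library size with TMM factors, which set most genes equal between libraries. Without these factors, the log2 fold change had a median of 0.35 over the genes tested, instead of 0.048. Bach2 itself was nearly silent, with 3 to 16 counts per Bach2KO and 4 to 31 per Bach2WT library, and could not check the labels. Bach2KO 3 lay farthest from its group over all genes, and leaving it out turned no direction among the 7 genes.

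Per gene length, the genes spanned more than 3 orders of magnitude. Prss2, the major anionic trypsinogen, was the gene with rank 2 of the whole table by mean FPKM, and Try4 and Try5 had ranks 3 and 9. Mean FPKM over the 8 libraries was 60591 for Prss2, 55587 for Try4, 31358 for Try5, 1180 for Prss3, 573 for Try10, 532 for Spink1 and 15.8 for Prss1. Within this order, Prss2 was above Try4 in 6 of 8 libraries and the pair did not differ beyond its spread (two-sided exact sign-flip permutation test, p = 0.289). Prss3 and Try10 (exact permutation p = 0.180) and Try10 and Spink1 (exact permutation p = 0.844) could not be ordered either. Try5 was below Try4 and above Prss3 in 8 of 8 libraries, and Prss1 was below Spink1 in 8 of 8 (exact permutation p = 0.00781 each, the smallest that 8 libraries allow). Try10 was above Spink1 in 4 of 4 Bach2WT and 0 of 4 Bach2KO libraries.

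**Figure D2:**
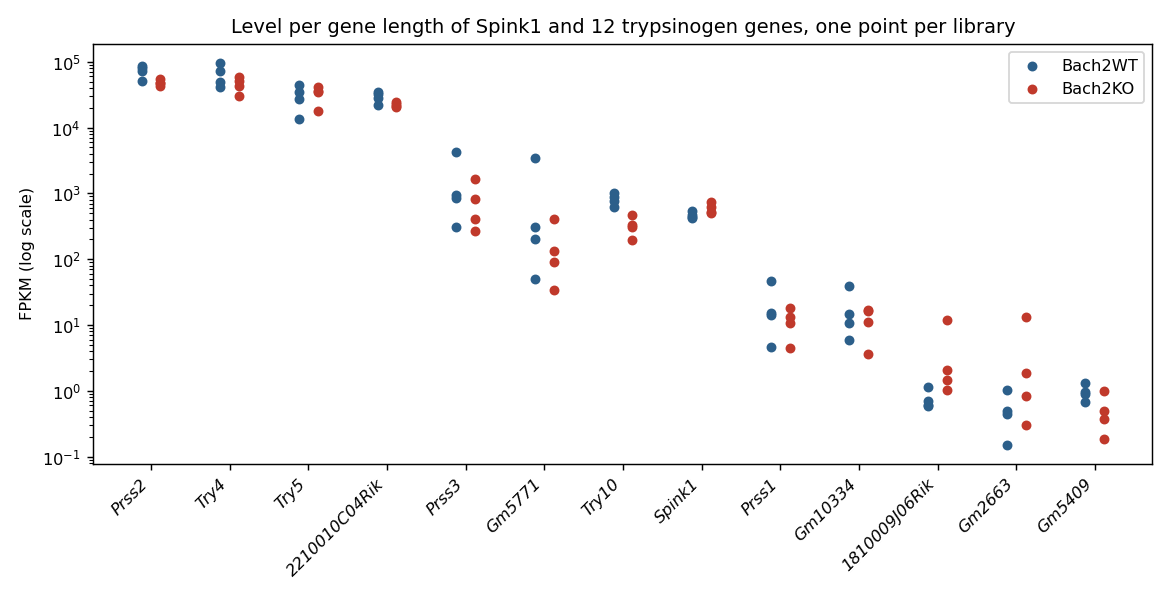
FPKM on a log scale of Spink1 and 12 trypsinogen and trypsinogen-like genes, ordered by their mean, with 1 point per library. Try10 is the gene among the 7 whose Bach2KO points (195 to 462) all lie under its Bach2WT points (614 to 1026).

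Try10, a minor trypsinogen, was the member with the smallest p for the difference between the genotypes. Its CPM was 177, 411, 291 and 276 in Bach2KO mice 1 to 4 and 540, 766, 661 and 890 in Bach2WT mice 1 to 4. The genotypes did not overlap, and the lowest Bach2WT library lay above the highest Bach2KO library (exact permutation test, two-sided, p = 0.0286, the smallest that 4 against 4 can give). Mean Try10 was 288 ± 96.0 CPM in the knockout and 714 ± 149 CPM in wild type mice (SD over 4 mice). The fitted log2 fold change was −1.31 (SE 0.24). Over all 12820 genes tested, Try10 had rank 4 by p, and it did not pass the threshold of 0.05 in edgeR's quasi-likelihood test with Benjamini-Hochberg adjustment (adjusted p = 0.266). In this test 0.0078% of the genes passed, that is 1 gene. DESeq2 gave Try10 an adjusted p of 0.000171, and edgeR on unfiltered genes gave 0.000849, so the call depends on the method. When each mouse was left out in turn, the log2 fold change lay between −1.53 and −1.13. Of the genes tested, 1.92% had Bach2KO libraries all below the Bach2WT libraries, and Try10 was the one such gene among the 7. As plain shares of the counts, Try10 took 0.0208% to 0.0440% in Bach2KO and 0.0552% to 0.0735% in Bach2WT libraries, again with no overlap. Such a pattern was found for 0.265% of all genes, and the opposite pattern for 7.7%.

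**Figure D3:**
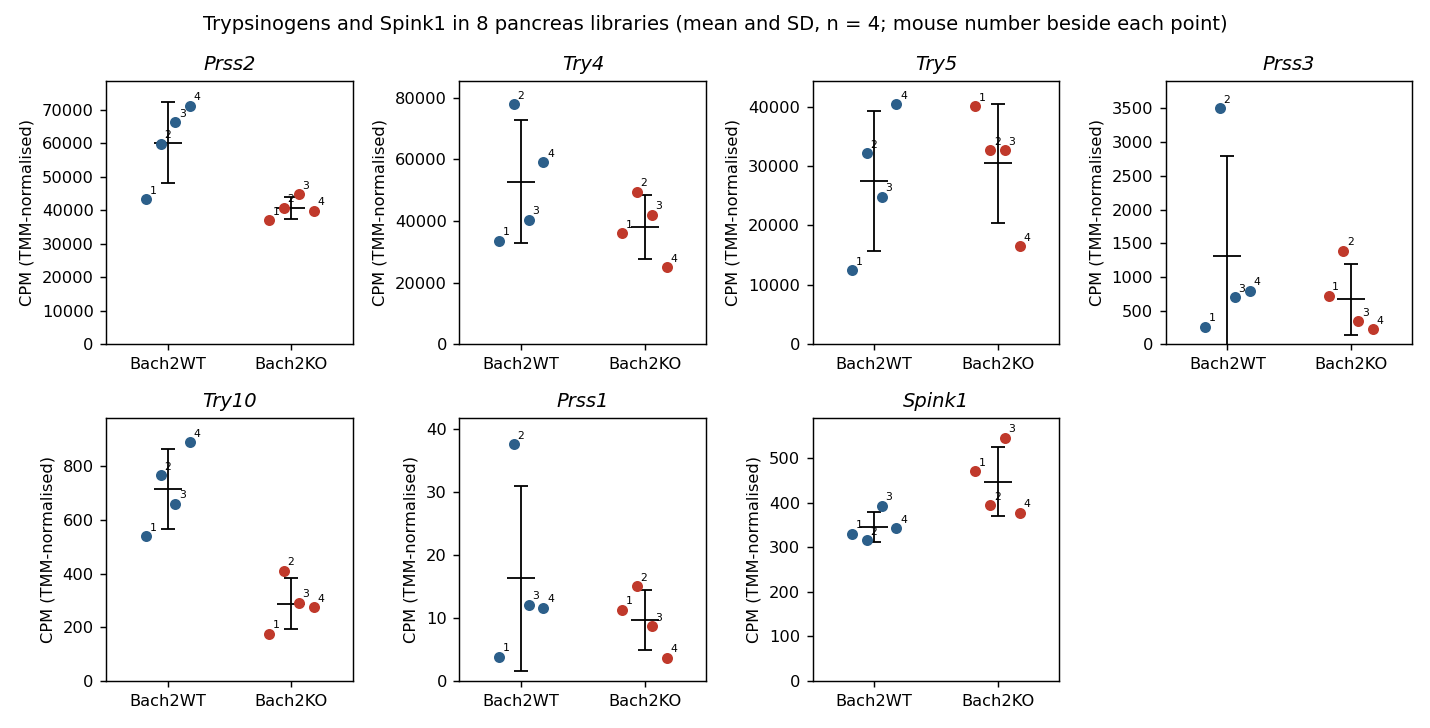
CPM of the 7 genes in each library (points with mouse numbers), with mean and SD (n = 4), on linear axes from 0. The lower SD bar of Prss3 in Bach2WT mice is cut at 0. Try10 shows 2 separate groups, whereas in the other panels the genotypes overlap.

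Among the 3 abundant members, Prss2 had the smallest p. Prss2 had 36938, 40685, 44770 and 39883 CPM in Bach2KO mice 1 to 4 and 43350, 59845, 66267 and 71228 CPM in Bach2WT mice 1 to 4. Bach2KO 3 lay above Bach2WT 1, and otherwise the knockout libraries were the lower ones. Its log2 fold change was −0.57 (SE 0.18, edgeR unadjusted p = 0.00652, adjusted p = 0.531), and the exact permutation p was 0.0571. Without normalisation factors the log2 fold change of Prss2 was −0.24. Its plain share of the counts was 4.34% to 4.69% in Bach2KO and 4.78% to 5.89% in Bach2WT libraries, without overlap. Such a pattern was found for 0.265% of all genes, and the opposite pattern for 7.7%.

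Try4 and Try5 encode closely related trypsinogens and lie side by side. Try4 had 36097, 49494, 42090 and 24946 CPM in Bach2KO mice and 33598, 77944, 40416 and 59110 CPM in Bach2WT mice. The ranges overlapped, with Bach2WT 2 at the top and Bach2KO 4 at the bottom (log2 fold change −0.47, SE 0.27, edgeR adjusted p = 0.762). Without Bach2WT 2 the log2 fold change of Try4 was −0.22, and without normalisation factors −0.15. Try5 had 40030, 32638, 32634 and 16449 CPM in Bach2KO mice and 12471, 32184, 24835 and 40375 CPM in Bach2WT mice. Its lowest and its highest library were both Bach2WT, and the log2 fold change was 0.15 (SE 0.32, edgeR adjusted p = 0.96), with a sign that turned without Bach2KO 1 (−0.010) or without Bach2WT 1 (−0.092). Try5 reached 71.1% ± 18.9 of the Try4 FPKM in Bach2KO and 46.2% ± 13.5 in Bach2WT mice, with overlapping libraries.

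Of the 6 trypsinogens, Prss3 and Prss1 varied most between mice of a genotype. Prss3 had 719, 1390, 340.5 and 222 CPM in Bach2KO mice and 260.2, 3503, 699 and 794 CPM in Bach2WT mice. Prss1 had 11.3, 15.1, 8.66 and 3.66 CPM in Bach2KO mice and 3.85, 37.7, 12.1 and 11.6 CPM in Bach2WT mice. In both genes Bach2WT 2 was far above the others and the genotypes overlapped. The log2 fold changes were −0.98 (SE 0.68) for Prss3 and −0.76 (SE 0.54) for Prss1, with edgeR adjusted p of 0.802 and 0.814. They rested on 1 library: without Bach2WT 2 they were 0.19 and 0.070. The log2 ratio of Prss1 to Prss3 had an SD of 0.40 over the 8 libraries, and that of Prss1 to Gm10334 (95.7% of aligned bases identical) 0.27. For the closest copies it was larger, at 0.54 between Prss3 and Gm10334 and 1.09 between Prss1 and Gm5771. These copies may share reads.

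**Figure D4:**
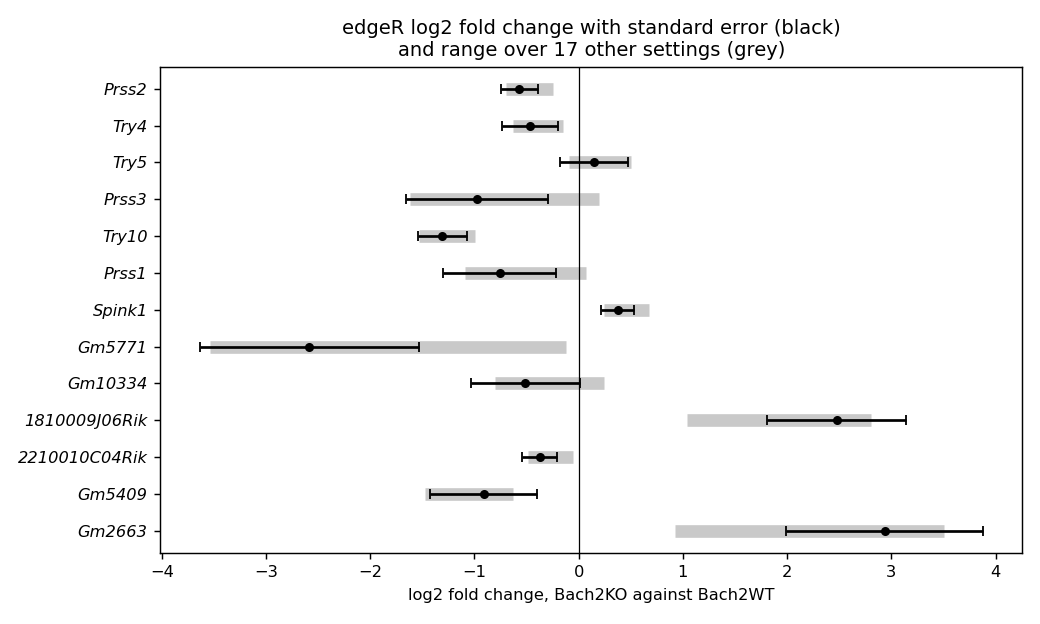
edgeR log2 fold changes of the 7 genes and 6 other trypsinogen-like genes, with 1 standard error (black) and the range over 17 other settings (grey). The ranges of Try10, Prss2, Try4 and Spink1 stay on one side of 0, and those of Prss1, Prss3 and Try5 cross it.

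Of the 7 genes, 5 had a negative log2 fold change, as did 5813 of all 12820 genes tested. The 6 trypsinogens had a median of −0.66, against 0.048 over all genes tested, and 2 of the 6 (Try10 and Prss2) had an unadjusted edgeR p under 0.05 with a lower level in Bach2KO mice, as did 3.56% of all genes. None passed after adjustment. The median and the number of negative values rested on 1 library: without Bach2WT 2 the median was −0.074 and 3 of the 6 were negative. In that setting Try10 had −1.27 and Prss2 −0.57. Without normalisation factors the median was −0.32.

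Spink1, on chromosome 18 from 43861147 to 43870622 on the minus strand, had a higher mean in Bach2KO mice. Its CPM was 471, 395, 546 and 378 in Bach2KO mice 1 to 4 and 331, 316, 393 and 343 in Bach2WT mice 1 to 4. Bach2WT 3 lay above Bach2KO 4, and the other 3 Bach2WT libraries lay below all Bach2KO libraries. Means were 448 ± 77.2 and 346 ± 33.5 CPM (SD, n = 4 each), and the log2 fold change was 0.37 (SE 0.16, unadjusted p = 0.0373, adjusted p = 0.655 in edgeR). The exact permutation p was 0.0571. Without normalisation factors, which moved the median of all genes up by 0.30, the log2 fold change of Spink1 was 0.67. Its plain share was 0.0424% to 0.0572% in Bach2KO and 0.0272% to 0.0365% in Bach2WT libraries, without overlap, as found for 7.7% of all genes. An unadjusted p under 0.05 with a higher level in Bach2KO mice was found for 3.9% of all genes, and Spink1 did not pass after adjustment.

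Against the trypsinogens, Spink1 had a larger mean share in the knockout. Its FPKM as a percent of the summed FPKM of the 6 trypsinogens was 0.476, 0.361, 0.519 and 0.525 in Bach2KO mice 1 to 4 and 0.413, 0.205, 0.335 and 0.226 in Bach2WT mice 1 to 4. Bach2WT 1 was above Bach2KO 2, and the other libraries were separate. The means were 0.470 ± 0.0758 and 0.295 ± 0.0971 (SD, n = 4 each), a log2 ratio of means of 0.67, for which no test was planned. Summed trypsinogens were 110130 ± 19398 CPM in Bach2KO and 142451 ± 39706 CPM in Bach2WT mice, a log2 ratio of −0.37. As plain shares of the counts, they were 12.2% ± 1.86 and 12.6% ± 2.42, which were much closer (log2 ratio −0.042), so the gap depends on the scaling.

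Within the counts of the 6 trypsinogens, Prss2, Try4 and Try5 made up nearly all, and the share of Try10 separated the genotypes. This sum leaves out 2210010C04Rik, which took 5.37% to 5.54% of all counts in Bach2KO and 5.33% to 6.14% in Bach2WT libraries. With the 6 other trypsinogen-like genes added, the sum was 17.7% ± 1.92 of all counts in Bach2KO and 18.3% ± 2.60 in Bach2WT libraries. Try10 was 0.155%, 0.330%, 0.242% and 0.337% of the trypsinogen counts in Bach2KO mice 1 to 4 and 0.599%, 0.440%, 0.497% and 0.516% in Bach2WT mice 1 to 4. This share does not depend on the normalisation. Try5 was 27.1% ± 6.16 in Bach2KO and 18.6% ± 3.92 in Bach2WT mice, with overlap. Try10 FPKM relative to Prss2 FPKM was 0.670% ± 0.210 in Bach2KO and 1.13% ± 0.124 in Bach2WT mice, where Bach2KO 2 (0.957%) was just above Bach2WT 3 (0.945%).

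**Figure D5:**
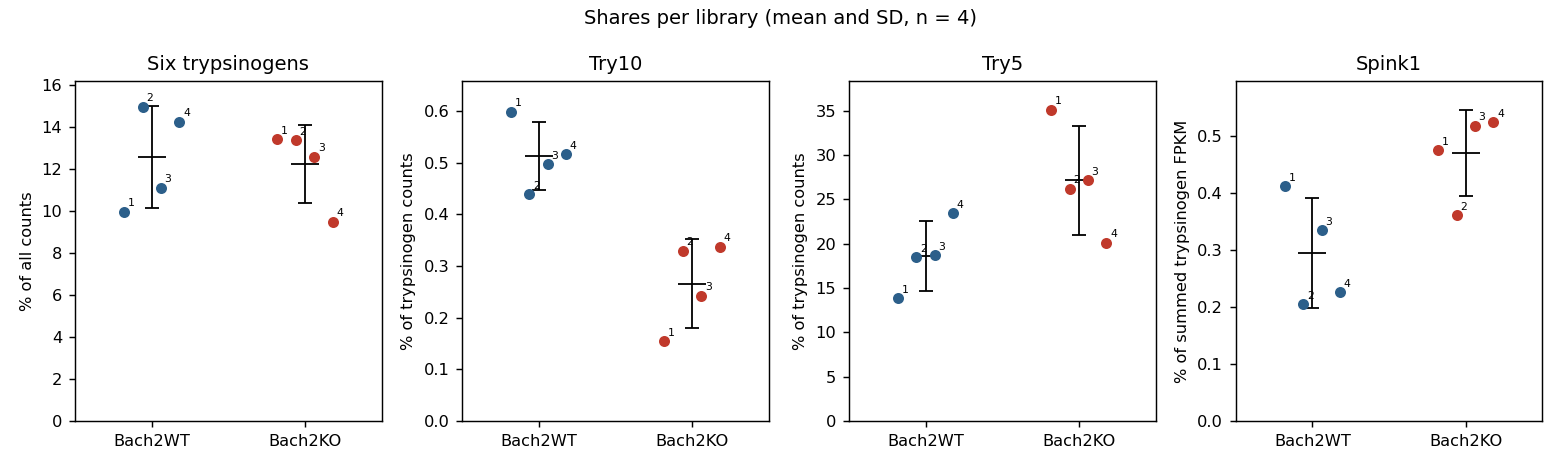
Per library and with mean and SD (n = 4): the 6 trypsinogens as a percent of all counts, Try10 and Try5 as a percent of trypsinogen counts, and Spink1 FPKM as a percent of summed trypsinogen FPKM. The shares of Try10 do not overlap between the genotypes, and the other panels overlap.

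The trypsinogen-like genes outside the 7 were mixed. The abundant 2210010C04Rik had 46086 to 52878 CPM in Bach2KO and 48279 to 74320 CPM in Bach2WT mice (log2 fold change −0.38, SE 0.17, edgeR adjusted p = 0.663), and its log2 ratio to Prss2 had an SD of 0.11 over the 8 libraries. Gm5771 had 27.8 to 333 CPM in Bach2KO mice and 40.6, 2824, 161 and 244 CPM in Bach2WT mice 1 to 4, with a log2 fold change of −2.59 (SE 1.05, edgeR adjusted p = 0.636) that was −0.13 without Bach2WT 2. The near-identical pair 1810009J06Rik and Gm2663 (99.4% of aligned bases) was highest in Bach2KO 2, at 10.8 and 11.9 CPM, against at most 1.91 and 1.67 in the other libraries. Fold changes on the log2 scale came to 2.48 and 2.94 (adjusted p of 0.448 and 0.531 in edgeR), and to 1.04 and 0.92 without Bach2KO 2. Gm10334 (−0.51) and the pseudogene Gm5409 (−0.91) did not pass either, with edgeR adjusted p of 0.896 and 0.753.

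Other genes of the trypsin pathway were taken from lists, and none passed the adjusted threshold. Of 9 genes tested from a list for trypsinogen activation and degradation, which holds cystatins beside proteases, 7 had a negative log2 fold change. Over all 12820 genes tested, 5813 were negative. The list values were as follows. The median of the 9 genes was −0.18, which moved to −0.092 without Bach2WT 4, −0.095 without Bach2KO 1 and −0.11 without Bach2KO 4. Ctrl, a chymotrypsin-like protease with the smallest p of this list, had a log2 fold change of −0.66 (edgeR adjusted p = 0.352). Its Bach2KO libraries all lay below the Bach2WT libraries, as for 1.92% of all genes. Lgmn, a lysosomal protease, had 0.80 (edgeR adjusted p = 0.643). Its highest library was Bach2KO 2 with 4.94 CPM, against 1.78 to 2.36 in the other Bach2KO and 1.02 to 1.78 in the Bach2WT libraries. Ctrc, a chymotrypsin, had −0.51 (edgeR adjusted p = 0.668). Of 7 other trypsin inhibitors tested, 3 had a positive and 4 a negative log2 fold change (median −0.0086, between −0.10 and 0.048 without single mice), and the smallest p belonged to Spint2, a membrane-bound Kunitz inhibitor, with −0.24 (edgeR adjusted p = 0.818). Slpi and Spint1 had 0.54 and −0.091. Of the 4 protease-activated receptors, 2 passed the filter, F2rl1 (0.33) and F2r (0.12), both at or below 0.568 CPM, and their median of 0.22 lay between −0.099 and 0.86 without single mice.

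Over all 12820 genes tested, 5813 had a negative log2 fold change. Among 25 other secreted digestive enzymes, 17 had a negative log2 fold change (median −0.17), and 6 were lower without overlap, against 1.92% of all genes. As plain shares of the counts, 5 of the 25 were lower without overlap, against 0.265% of all genes. That background is lopsided, since 7.7% of all genes were higher without overlap and the median log2 fold change without factors was 0.35. Cela3a, an elastase, had −1.18 and Rnase1, the pancreatic ribonuclease, −0.70 (edgeR adjusted p of 0.266 and 0.371). Of 10 regulators of acinar genes, 6 had a negative log2 fold change (median −0.16, which moved to −0.0095 without Bach2KO 1, −0.053 without Bach2WT 2 and −0.082 without Bach2WT 3), with Bhlha15 at −0.36, Rbpjl at −0.30 and Nr5a2 at −0.30 (edgeR adjusted p from 0.756 to 0.881).

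The summed CPM of 7 acinar markers, Cpa1, Cela1, Amy2b, Pnlip, Rbpjl, Ptf1a and Bhlha15, was 173663 to 213018 in Bach2KO and 216540 to 281239 in Bach2WT mice, with no overlap. As plain shares of the counts, without TMM factors, the same sums were 20.4% to 24.7% and 20.2% to 23.9% and overlapped, with means of 22.2% ± 1.88 and 22.1% ± 1.87 (SD over 4 mice). Of the 7 markers, 5 had a negative and 2 a positive log2 fold change, where 5813 of all 12820 genes tested were negative. In edgeR 1 of the 7 was lower in Bach2KO mice at unadjusted p under 0.05, as were 3.56% of all genes. On the TMM scale the mean of the sum was lower in Bach2KO mice, as were the means of Try10 and Prss2. The part of the sum in the differences of Try10 and Prss2 was not tested. In bulk tissue, fewer acinar cells and less RNA per acinar cell cannot be told apart. Summed markers of duct, islet, T, B and plasma cells, macrophages, fibroblasts, endothelium and adipocytes overlapped between the genotypes. At the same unadjusted threshold, 1 marker each of duct, islet and endothelium was higher and 1 adipocyte marker lower in Bach2KO mice. Over all genes, 3.9% were higher at this threshold. The 4 eosinophil and neutrophil markers present summed to 0.124 to 0.647 CPM in Bach2KO and 0 to 0.0222 CPM in Bach2WT mice, too low for any to pass the filter.

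The genes most like each member were those whose CPM ratio to it had the smallest SD on the log2 scale over the 8 libraries. Members and other trypsinogen-like genes were left out of this ranking. For Prss2 these were Ftl1 (SD 0.050), Ergic3 (0.065) and Reep5 (0.097), and for Spink1 Unc50 (0.11), Ric8a (0.11) and Rnf215 (0.13). For Try10 they were Gm10146 (0.26), Mrgpre (0.31) and Dact2 (0.33), for Try4 Dynll1 (0.19), Cops9 (0.22) and Igsf23 (0.24), and for Try5 Tmem64 (0.23), B9d1 (0.24) and Mrtfb (0.26). Outside the trypsinogen genes, Prss1 had no gene closer than Zfp111 (0.53, then Rsf1 and Lag3). Prss3 had none closer than Lag3 (0.69, then Rsf1 and Fam217b).

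With 2 mice per sex and genotype, the genotype difference could be compared between the sexes only coarsely. No member passed the test of the interaction in edgeR. Try5 had the largest value, −1.11 on the log2 scale (male minus female difference, SE 0.62, adjusted p = 0.854), and the adjusted p of the other 6 lay between 0.957 and 0.996.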

How the data were processed

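Pancreas libraries of 8 mice were analysed from 1 table for the whole series. The submitters' processing notes name fastp, HISAT2 2.2.1, featureCounts 2.0.6 and build mm39 (GRCm39). The authors deposited counts per gene without normalization, and FPKM values, which equal the count divided by 1 size factor per library and by gene length. The table also holds 8 columns of normalized signal per library, and the log2 fold changes and p-values of the authors' own comparison, which were not used. Genotypes were compared with edgeR 4.0.16 (TMM, filterByExpr, quasi-likelihood test, all 8 libraries, no covariate), which tested 12820 of 21434 genes, with Benjamini-Hochberg adjustment and a threshold of 0.05. DESeq2 1.42.0 and other settings were alternatives. For single values, exact permutation tests (two-sided) were used. The procedure was tested on simulated data. Replicates are separate mice. The members and the gene lists were chosen with earlier results of these data known. The text names the 7 members, the trypsinogen-like genes and up to 3 genes per list with the smallest p. It also names, outside the members and trypsinogen-like genes, the 3 genes most like each member. How strand, mates of a pair and multi-mapping reads were counted is not given in the sources used here. Sequences came from GENCODE M21 and RefSeq (GRCm38.p6) and were matched by gene.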

Additional observations from a re-analysis of the deposited data

Results flagged for a closer look

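The values of 7 results lay apart from the other 3 mice of their genotype by Dixon's criterion for the gap over the range. In 60 groups tested, about 3 such values would occur by chance. In Bach2WT mice, Bach2WT 2 had 3503 CPM of Prss3, with the others at 260.2 to 794 CPM, and 2824 CPM of Gm5771, with the others at 40.6 to 244 CPM. In Bach2KO mice, Bach2KO 2 had 10.8 CPM of 1810009J06Rik, with the others at 0.938 to 1.91 CPM, and 11.9 CPM of Gm2663, with the others at 0.269 to 1.67 CPM. Both are pairs of related copies, and in each pair the library apart was the same. Rbpjl had 45.4 CPM in Bach2KO 1, with the others at 56.9 to 58.6 CPM. Nr5a2 had 5.02 CPM in Bach2WT 4, with the others at 3.22 to 3.52 CPM. The Try10 share of Prss2 FPKM was 0.945% in Bach2WT 3, with the others at 1.18% to 1.21%.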

How the results depend on the processing

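Try10, Prss2, Try4 and Spink1 kept their direction in 17 of 17 other settings. Try10 passed the threshold with DESeq2 (log2 fold change −1.33) and without the filter on low counts (−1.30), and leaving out each mouse gave −1.53 to −1.13. Without Bach2WT 2, Prss1 was 0.070, Prss3 0.19 and Gm10334 0.25, each turned in sign. The ranges without single mice were −1.09 to 0.070 for Prss1, −1.62 to 0.19 for Prss3, −0.63 to −0.22 for Try4 and −0.80 to 0.25 for Gm10334. Try5 was −0.010 without Bach2KO 1 and −0.092 without Bach2WT 1, with a range of −0.092 to 0.39. Without the filter, 1810009J06Rik (2.48) and Gm2663 (2.94) passed, with adjusted p of 0.00885 and 0.0235. The median of the other trypsinogen-like genes, −0.44, was 0.061 without Bach2WT 2. The cause was not tested. Over all genes, the 1 higher and 0 lower genes became 52 and 23 with DESeq2, 55 and 18 without the filter, and 0 and 0 with at least 10 counts in every library, with sex as a covariate, with the replicate block, and without any single mouse (0 to 0), whereas 500 and 457 genes had an unadjusted p under 0.05. Of those, 52.2% were higher, against 97.1% without normalisation factors and 37.3% with a gene-length offset. Same-numbered mice did not deviate together (correlations −0.054 to 0.212, and 1 of 4 Bach2KO mice correlated best with its own number), so the numbers were not taken to pair the mice. Chosen after seeing the data were the plain shares, the median of the 6 trypsinogens under each setting, and 3 more. Adding the other trypsinogen-like genes gave log2 ratios of −0.38 for summed trypsinogens and 0.68 for Spink1 per trypsinogen, and leaving out each mouse gave −0.98 to −0.61 for Try10 per Prss2. With 4 mice per genotype, differences between mice, not depth, limited the precision.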
